A study of Mus musculus with 11 samples.

Results

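Type I interferon response genes were followed through ATAC-seq data of naive CD4 T cells, as every deposited peak whose assigned gene was 1 of 39 listed members. ATAC-seq uses the transposase Tn5 to cut and tag open DNA, so that the reads falling in a peak measure how accessible it is. The 39 genes held 125 of the 45508 peaks, and each gene had at least 1, so no member was without a listed peak. Of the 125 peaks, 42 were annotated as intronic, 40 as intergenic and 28 as promoters, and 42 lay within 1 kb of a start site (33.6% of members and 26.8% of all peaks). All mice carried the Tg(Nr4a1-EGFP)GY139Gsat transgene, in which the Nr4a1 (Nur77) promoter drives green fluorescent protein after T cell receptor signalling, and the Foxp3tm1Flv mutation, a red reporter of Foxp3, on a C57/BL6 background, and they received no treatment. The age of the mice is not given in the sources used here. Cells without the red reporter and with low CD44 were taken from spleen and lymph nodes and separated by the green reporter and the surface protein Ly6C. Population A was reporter low and Ly6C positive (n = 2, mice 1 and 3). The other populations had n = 3 each, from mice 1, 2 and 3. B was Ly6C positive with an intermediate reporter, C had the same reporter range without Ly6C, and D lacked Ly6C and had the highest reporter. Libraries are written as population and mouse, so that A3 is population A of mouse 3, also called A replicate 3. Values are rppm, reads in a peak scaled by the authors to a common total, and each library was made from 10000 cells. In a bulk library, a site open in fewer cells and a site less open in every cell give the same value.

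Type I interferons signal through a receptor made of the chains Ifnar1 and Ifnar2, whose associated kinases Tyk2 and Jak1 phosphorylate Stat2. The complex ISGF3, which contains Stat2 and Irf9, binds the interferon-stimulated response element (ISRE) in the promoters of target genes. The targets include sensors of foreign nucleic acid, enzymes that degrade viral RNA or block its translation, and Irf7, which raises interferon production further. Resting T cells keep many of these genes at a low basal level without infection.

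RefSeq promoter windows on the GRCm38.p6 build, 250 bases before to 50 after a start site, were held for 30 of the 39 genes (36 windows). The ISRE was searched on both strands as GAAA, any 2 bases and GAAA again. It was present in 14 of the 36 member windows (38.9%), which belonged to 13 genes (Bst2, Ddx58, Eif2ak2, Ifih1, Ifit1, Ifit3, Igtp, Irgm1, Isg15, Oas3, Rsad2, Stat2 and Trim30a), against 3.44% of all 32851 windows of the same length. A match is a description of the letters, not a bound site. The windows below are shown because Isg15 held the most ISRE matches among the 36 windows, Ifit1 held 2 under no listed peak, and Oas3, Ifit3 and Oasl2 have peaks that differed between populations. They are written 5′ to 3′ along the gene, with ISRE matches in capitals, and a match on the opposite strand reads TTTC, 2 bases and TTTC. The window of Oasl2 holds no match to these letters.
Isg15, chr4:156200769-156201068, minus strand: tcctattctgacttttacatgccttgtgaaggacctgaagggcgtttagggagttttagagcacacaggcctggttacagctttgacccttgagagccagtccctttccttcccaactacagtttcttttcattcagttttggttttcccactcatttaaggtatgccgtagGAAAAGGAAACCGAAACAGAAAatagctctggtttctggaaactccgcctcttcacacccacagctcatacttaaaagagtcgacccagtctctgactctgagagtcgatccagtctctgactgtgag
Ifit1, chr19:34640639-34640938, plus strand: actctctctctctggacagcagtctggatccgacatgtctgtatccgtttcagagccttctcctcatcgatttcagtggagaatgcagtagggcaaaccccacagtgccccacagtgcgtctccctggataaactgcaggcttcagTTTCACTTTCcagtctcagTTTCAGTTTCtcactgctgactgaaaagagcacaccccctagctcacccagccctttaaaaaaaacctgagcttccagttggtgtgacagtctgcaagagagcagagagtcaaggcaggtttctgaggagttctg
Oas3, chr5:120777610-120777909, minus strand: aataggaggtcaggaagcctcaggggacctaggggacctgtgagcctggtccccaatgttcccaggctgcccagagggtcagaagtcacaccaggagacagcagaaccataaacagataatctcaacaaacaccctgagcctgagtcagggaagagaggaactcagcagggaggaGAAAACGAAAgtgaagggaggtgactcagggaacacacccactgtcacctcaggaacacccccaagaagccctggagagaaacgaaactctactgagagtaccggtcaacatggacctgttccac
Ifit3, chr19:34583279-34583578, plus strand: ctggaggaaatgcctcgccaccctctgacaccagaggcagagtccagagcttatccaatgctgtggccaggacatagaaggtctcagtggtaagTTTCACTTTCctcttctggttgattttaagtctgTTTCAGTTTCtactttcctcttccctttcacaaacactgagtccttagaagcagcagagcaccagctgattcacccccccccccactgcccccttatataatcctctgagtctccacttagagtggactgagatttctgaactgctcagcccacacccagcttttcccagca
Oasl2, chr5:114896684-114896983, plus strand: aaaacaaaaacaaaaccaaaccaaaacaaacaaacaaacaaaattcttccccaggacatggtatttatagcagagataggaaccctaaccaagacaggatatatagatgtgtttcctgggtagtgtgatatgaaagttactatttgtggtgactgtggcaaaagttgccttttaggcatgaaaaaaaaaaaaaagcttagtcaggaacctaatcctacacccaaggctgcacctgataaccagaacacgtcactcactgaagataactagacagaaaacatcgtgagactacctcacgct

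Nearly all response genes had a listed peak close to a start site. Of the 36 promoter windows 33 lay under a listed member peak, and the 3 under none were at Ifit1, Ifi47 and a start site of Isg20. A peak within 1 kb of a start site was listed for 37 of the 39 genes. The exceptions were Ifit1, an RNA-binding inhibitor of translation whose nearest peak was 21.3 kb away, and Parp9, an ADP-ribosyltransferase that shares a divergent promoter region with Dtx3l, to which the authors assigned the peak there. Scaled per kb of peak, the mean level over the 11 libraries was 47.0 rppm per kb at Ifit2, 43.9 at the receptor kinase Tyk2, 42.7 at Stat2 and 38.1 at Isg15, the ubiquitin-like modifier. It was 5.71 at Mx1, an antiviral dynamin-like GTPase, 5.97 at Oas2 and 6.82 at Eif2ak2, the kinase PKR. In this order 35 of 36 neighbouring genes had ranges over libraries that overlapped, the exception being Xaf1 (12.5) and Eif2ak2.

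**Figure D1:**
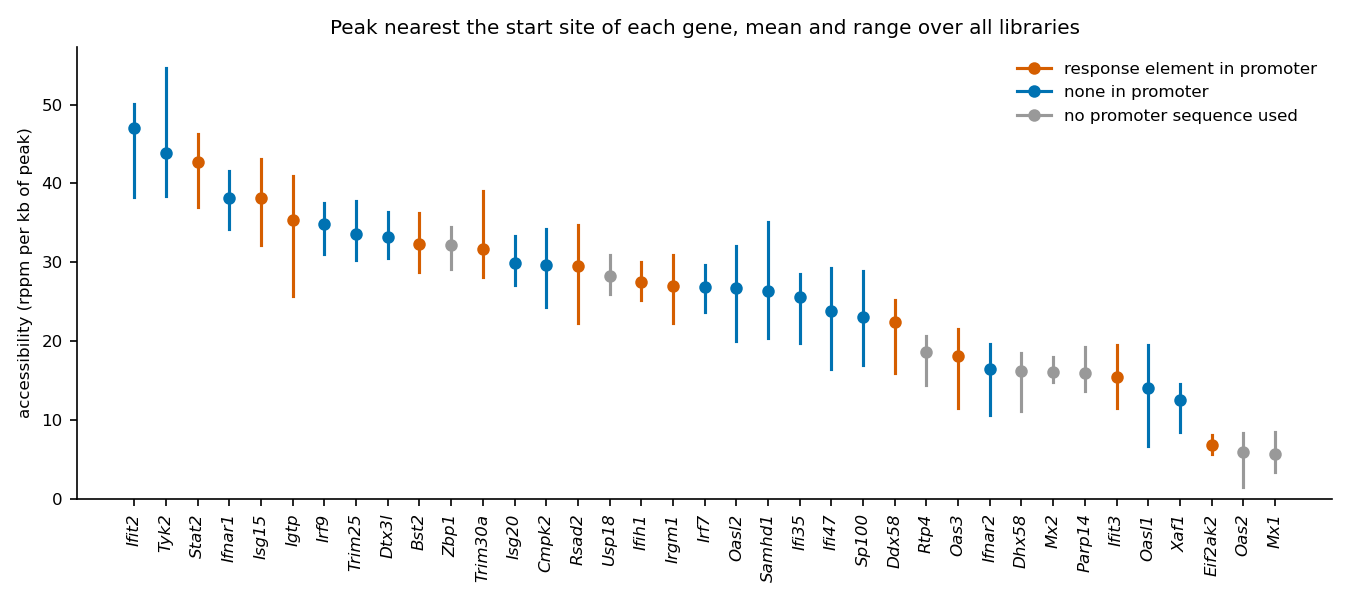
Accessibility in rppm per kb of peak (vertical axis) at the peak nearest the start site of the 37 genes with a peak within 1 kb. Points are means and lines the range over all 11 libraries, and colour shows whether a RefSeq promoter window held an ISRE match. Ifit2 is highest at 47.0 and Mx1 lowest at 5.71, and genes with and without a match lie throughout the order.

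Library depth and markers of other cell types were compared across the populations. The totals by which reads were scaled ran from 2597176 in population D replicate 1 to 36859228 in D replicate 3, so that 10 rppm stood for 26 to 369 reads, and in every population the library of mouse 3 was the deepest. For markers of 4 cell types the ranges of summed level in A and D overlapped, and for those of regulatory T cells they did not. Of 12 T cell markers 9 had peaks, with sums of 1549 to 1585, 1603 to 1654, 1536 to 1642 and 1551 to 1648 rppm across populations A, B, C and D, and Trac, Trbc1 and Trbc2 had none listed. Of 12 B cell markers 7 had peaks (201 to 203, 209 to 212, 207 to 219 and 189 to 222 rppm in the same order), and those without one included Ms4a1 and Pax5. Of 13 myeloid and dendritic markers 10 had peaks (303 to 309, 316 to 324, 305 to 333 and 276 to 317 rppm), and Csf1r, Lyz2 and Siglech had none. Of 11 CD8 T and NK markers 9 had peaks (577 to 605, 575 to 602, 548 to 598 and 519 to 610 rppm), and Ncr1 and Nkg7 had none. All 7 regulatory T cell markers had peaks, with sums of 541 to 553, 549 to 556, 561 to 579 and 672 to 676 rppm. The part of such cells in the results below was not tested.

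Between population D and population A, few member peaks differed, and nearly all of those that did were less accessible in D. Reporter level and Ly6C both differ in this comparison, and their parts cannot be told apart. Of 125 peaks, 9 were lower in D (7.20%, at Oasl2, Oas3, Parp9, Ifit3, Ifi47, Ifnar1 and Tyk2) and 1 was higher (0.80%, at Ifnar2), called at a limma adjusted p below 0.05. Over all 45508 peaks the shares were 3.74% lower and 8.7% higher. The median log2 change of rppm + 1, D minus A, was -0.11 over the members and -0.04 over all peaks, and 91 of 125 member peaks (72.8%) had a negative change against 56.9% of all peaks. Over the refits the all-peak median ran from -0.056 (minimum mean of 5 rppm) to 0.015 (edgeR), and it was -0.0025 without D1. Member medians are not given for these refits. At 34 member peaks every library of D was below every library of A (27.2%, against 18% of all peaks), and at 8 every library was above (6.4%, against 19.3%). Within mice, D was below A in mouse 1 and in mouse 3 at 57 member peaks (45.6%, against 35.9%) and above in both at 21 (16.8%, against 30.1%). With the mouse as a block, 18 member peaks were lower and 2 higher (8.79% and 12.5% of all peaks). The limma count of 9 lower peaks fell to 3 without A1, 2 without A3, 5 without mouse 2 and 0 without mouse 3, where 0.191% of all peaks were called lower and 2.06% higher, while by edgeR 8 member peaks were lower and 1 higher (3.76% and 10.4% of all peaks). With only A and D in the limma fit 4 were lower and 1 higher, and the calls at Ifi47, Ifit3, Tyk2 and the Oasl2 peaks away from its start were lost.

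**Figure D2:**
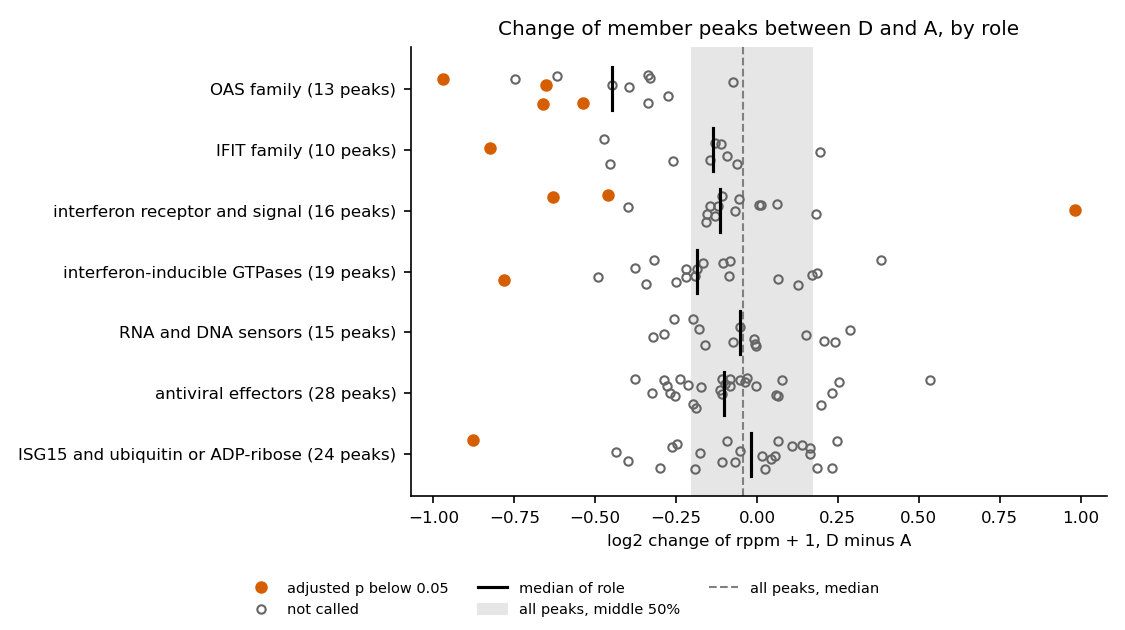
Log2 change of rppm + 1, D minus A (horizontal axis), for each of the 125 member peaks, in rows by the role of the gene. Filled points passed the limma adjusted threshold of 0.05, black ticks are medians of a role, and the grey band and dashed line give the middle 50% and the median of all 45508 peaks. All 13 OAS peaks lie below 0, and the single called point above 0 belongs to Ifnar2.

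Called peaks lay mostly farther than 1 kb from a start site, among the members as among all peaks, where 1591 of 1701 lower and 3623 of 3957 higher calls lay that far. Within 1 kb of a start site 1 of 42 member peaks was lower and 0 higher (2.38% and 0%, against 0.901% and 2.74% of all such peaks). Farther away 8 of 83 were lower and 1 higher (9.64% and 1.20%, against 4.78% and 10.9%). With the mouse as a block, 6 of the 42 start-site peaks were lower and 0 higher (981 and 534 of all 12206 such peaks). In that fit 12 of the 83 farther peaks were lower and 2 higher (3020 and 5133 of all 33302). Negative changes were found at 35 of the 42 start-site peaks (83.3%), against 69.3% of all peaks that close, with medians of -0.12 and -0.07. Peaks over a promoter window with an ISRE match had a median log2 change of -0.15 (13 of 13 negative), and those over a window without one -0.13 (13 of 16 negative), and this difference was not tested.

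The OAS family was lower in D at all of its 13 peaks in mean change, with 4 called lower, 0 higher and a median log2 change of -0.45. Over all peaks 3.74% were called lower and 8.7% higher, 56.9% had a negative change and the median was -0.04. Its members sense double-stranded RNA, and Oas2 and Oas3 make the oligoadenylate messenger that activates RNase L. The strongest of the 4 called sites, in intron 1 of Oas3 and 1.90 kb past its start (mm10, chromosome 5, 120775229 to 120776297), stood at 59.5 and 54.6 rppm in the libraries of A, at 62.2, 49.1 and 51.2 in B, at 61.2, 45.9 and 46.9 in C and at 38.9, 32.9 and 35.5 in D. Populations A, B and C overlapped, and each library of D was below each of the other 8. The log2 change was -0.66 (SE 0.14, limma adjusted p = 0.00665) from A to D. The peak over the Oas3 promoter printed above, which holds an ISRE match, was small, at 7.25 rppm in A and 5.63 in D (a log2 change of -0.33, limma adjusted p = 0.336).

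Oasl2, an OAS-like protein with ubiquitin-like domains, had 6 peaks and 3 of the calls. Its start-site peak (chromosome 5, 114896492 to 114897855, over exon 1 and the promoter printed above) held 43.7 and 41.5 rppm in A, 32.1, 39.5 and 42.7 in B, 32.6, 40.4 and 41.1 in C and 27.3, 27.6 and 32.4 in D. It fell by 0.54 on the log2 scale (SE 0.14, limma adjusted p = 0.0228), and it was the single start-site peak called without the mouse as a block. A peak in intron 1, 2.08 kb past the start (114898903 to 114899125), held 3.92 and 5.13 rppm in A, 3.12, 4.35 and 3.51 in B, 2.75, 3.60 and 3.60 in C and 1.16, 1.89 and 2.52 in D. Its log2 change was -0.97 (SE 0.22, limma adjusted p = 0.00911), the largest decrease of any member peak, although the lowest library rested on 3 reads. A peak 20.9 kb upstream, inside an intron of 4930519G04Rik (114875810 to 114876321), went from 3.58 ± 0.913 rppm (SD, n = 2) in A to 1.90 ± 0.328 (n = 3) in D (log2 -0.65, limma adjusted p = 0.0367). Oasl1, which lies next to Oasl2 and represses Irf7 translation, was not called at any of 3 peaks: its strongest, 1.1 kb upstream, changed by log2 -0.07, and the one at its start by -0.40 (limma adjusted p = 0.498).

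**Figure D3:**
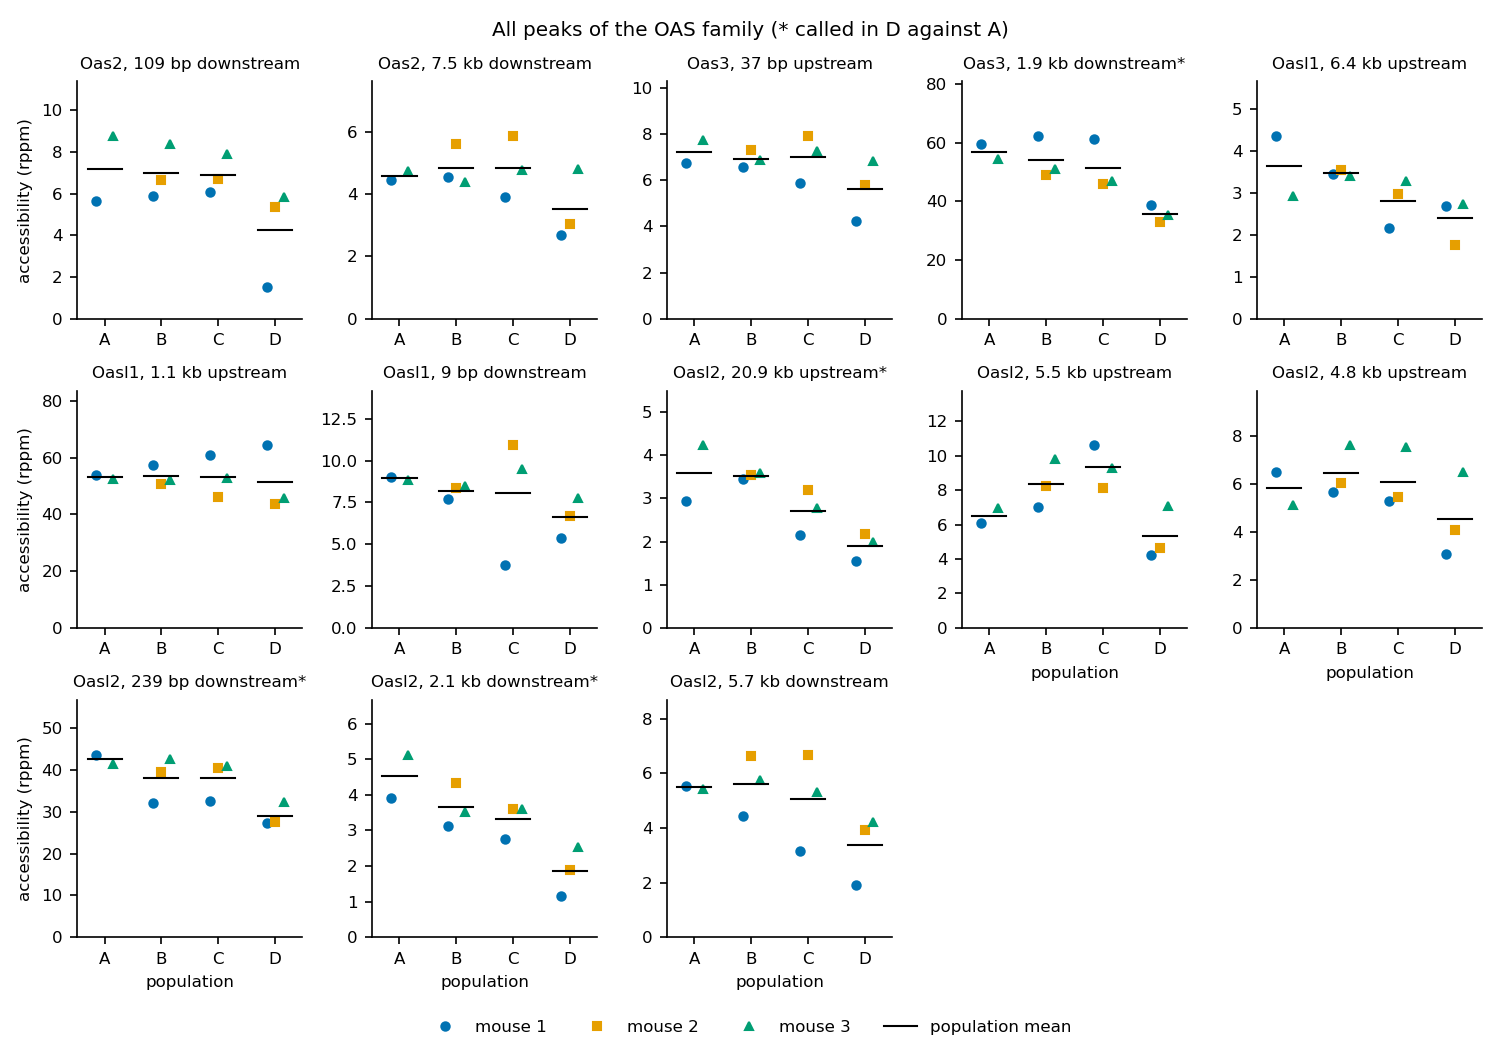
Accessibility in rppm (vertical axes, each from 0) by population for all 13 peaks of the OAS family, titled by gene and distance from the start site. Each point is a library, coloured by mouse, black lines are population means, and an asterisk marks the 4 peaks called lower in D against A. The Oas3 peak of 1.9 kb falls to 38.9 rppm or less in each library of D, while the D libraries of the strongest Oasl1 peak lie on either side of those of A.

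Several OAS calls depended on 1 library. The Oas3 call was lost without population A replicate 1 (limma adjusted p = 0.0913). The start-site peak of Oasl2 was lost without A replicate 1 (0.176), A replicate 3 (0.11) or D replicate 2 (0.0608), and the intron 1 peak without A replicate 3 (0.135). The peak 20.9 kb upstream of Oasl2 was lost without A3, B1, B2, B3, C3, D1 or D3, taken singly, with limma adjusted p-values from 0.0504 (B1) to 0.39 (A3), and by DESeq2 (0.0951). With the mouse as a block, the limma calls also took in the start-site peak of Oas2 (adjusted p = 0.0228) and a peak in intron 2 of Oasl2 (blocked adjusted p = 0.0112). The Oas2 peak held 7.21 ± 2.19 rppm in A and 4.25 ± 2.36 in D. Without the block its log2 change was -0.75 (limma adjusted p = 0.209). That fit called 8.79% of all peaks lower and 12.5% higher. Reads of the Oas2 peak in population D replicate 1 came to 4. Oas, Ifit and interferon-inducible GTPase genes have similar neighbouring copies, and how reads that map to several places were treated is not given in the sources used here.

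At the receptor and its signal chain, the receptor genes Ifnar1 and Ifnar2 held called peaks of opposite direction. A peak 5.88 kb upstream of Ifnar2 (chromosome 16, 91366341 to 91367474) held 7.94 and 7.45 rppm in A, 9.80, 8.81 and 7.70 in B, 8.63, 8.64 and 9.25 in C and 14.6, 14.98 and 19.3 in D. Libraries of A, B and C lay between 7.45 and 9.80 rppm, and those of D were all above them. The rise was log2 0.98 (SE 0.16, limma adjusted p = 7.03e-04) from A to D and 0.81 (SE 0.14, limma adjusted p = 0.00300) from C to D. The other 3 peaks of Ifnar2, its start site among them, changed by -0.16 to 0.06 and were not called. A peak in intron 2 of Ifnar1 (chromosome 16, 91490757 to 91491329) held 16.8 and 16.2 rppm in A, 16.8, 15.5 and 15.6 in B, 15.5, 14.0 and 11.9 in C and 9.24, 11.2 and 10.6 in D. It fell by 0.63 on the log2 scale (SE 0.14, limma adjusted p = 0.00799), with no overlap between D and any other population, while the start-site peak of Ifnar1 averaged 69.4 rppm over A and 66.6 over D. A peak 2.03 kb upstream of Tyk2 (chromosome 9, 21133047 to 21133572) went from 18.1 and 16.6 rppm in A through 17.7, 16.9 and 16.8 in B and 15.3, 13.0 and 14.2 in C to 12.7, 11.8 and 12.5 in D. Its log2 change was -0.46 (SE 0.12, limma adjusted p = 0.0232). Here both Ly6C negative populations lay below both Ly6C positive ones, but C against B was not called there. By limma that contrast called 0 of 125 member peaks, and 0% of all peaks lower. The start-site peak of Tyk2, its strongest, averaged 43.35 rppm over A and 49.54 over D and was not called (log2 0.18, limma adjusted p = 0.421). Of the 4 Tyk2 peaks 2 had negative changes. The Ifnar2 calls held without any single library. The Ifnar1 call was lost without A replicate 1 (limma adjusted p = 0.0827) or A replicate 3 (0.0627), and the Tyk2 call without A replicate 1 (0.21), A replicate 3 (0.0892), D replicate 2 (0.0591) or D replicate 3 (0.0519).

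None of the peaks of the member transcription factors Stat2, Irf9 and Irf7 was called in D against A by limma. Over all peaks 3.74% were called lower and 8.7% higher. Stat2, the ISGF3 subunit that Irf9 binds, had a start-site peak of 46.6 rppm in A and 42.1 in D (a log2 change of -0.15, limma adjusted p = 0.475). That of Irf9, the DNA-binding subunit, was 60.3 rppm in A and 54.1 in D (a log2 change of -0.16, limma adjusted p = 0.390). That of Irf7 was 56.2 rppm in A and 51.6 in D (a log2 change of -0.12, limma adjusted p = 0.623). At each of the 3 the population means stepped down from A through B and C to D, with no step called. Such a fall at each step was found at 13% of all peaks and 16.8% of member peaks. The other peak of Stat2 changed by log2 0.005 from A to D, and that of Irf7 by -0.40.

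IFIT genes encode proteins that bind viral RNA and block its translation, and lie side by side on chromosome 19. Of their 10 peaks 1 was called lower in D than in A, and 9 had negative changes (median log2 -0.14), against 3.74% called lower and 56.9% negative over all peaks. The called peak was assigned to Ifit3 but lies in intron 1 of a long Ifit2 transcript, 13.3 kb upstream of the Ifit3 start (34569763 to 34570655). It held 7.07 and 7.35 rppm in A, 6.79, 5.49 and 8.30 in B, 4.91, 5.04 and 8.20 in C and 2.70, 3.78 and 4.64 in D. The log2 change was -0.82 (SE 0.24, limma adjusted p = 0.0348). No library of D reached any of A, B or C. Another site in the same intron, 11.6 kb past the Ifit2 start (34562334 to 34562942), was called lower in D than in C (7.58 ± 0.236 to 4.70 ± 1.31 rppm, n = 3 each, log2 -0.61, SE 0.17, limma adjusted p = 0.0492). The start-site peaks of Ifit2 (51.0 rppm in A and 46.7 in D) and of Ifit3, whose promoter holds 2 ISRE matches (17.5 and 16.6 rppm), were not called. The Ifit3 call was lost without A replicate 1 (limma adjusted p = 0.162), A replicate 3 (0.198), D replicate 1 (0.0732) or D replicate 2 (0.0621), and by edgeR (0.0545) and DESeq2 (0.057). The Ifit2 call was lost without any single library other than D1 (limma adjusted p 0.0619 to 0.174), and with median-of-ratios scaling (0.0667), a minimum mean of 5 rppm (0.0705) or a pseudocount of 0.25 rppm (0.051).

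Among the members that act through ADP-ribose and ubiquitin, 1 of 24 peaks was called, as lower, against 3.74% of all peaks, and 12 of the 24 had negative changes, against 56.9%. The called peak lies 32.8 kb upstream of Parp9 (chromosome 16, 35905072 to 35906273), a partner of the ubiquitin ligase Dtx3l, and had the smallest p of all member peaks. Its values were 14.4 and 15.5 rppm in A, 12.6, 12.8 and 11.9 in B, 9.81, 8.84 and 9.39 in C and 8.09, 7.27 and 7.65 in D. Libraries of the 4 populations did not overlap, so that accessibility stepped down at each move from A to D (log2 -0.88 in all, SE 0.13, limma adjusted p = 4.01e-04). The share of all peaks separated in this way is not given here, while population means fell at each step at 13% of all peaks. No single library removed the Parp9 call. None of the single steps was called there, and the change from B to C was log2 -0.38 (limma adjusted p = 0.644). The other Parp9 peak, 19.4 kb upstream, was called lower with the mouse as a block (limma adjusted p = 0.0350) and not without it (log2 -0.43, limma adjusted p = 0.169). The peak over the shared start sites of Dtx3l and Parp9 averaged 70.0 rppm over A and 64.8 over D. Isg15, its deconjugating protease Usp18 and the ubiquitin ligase Trim25 had 1, 6 and 7 peaks and no call, and 6 of the 7 peaks of Trim25 had positive changes (0.03 to 0.25).

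The interferon-inducible GTPases Ifi47, Igtp and Irgm1, which attack the vacuoles of intracellular pathogens, had 19 peaks. In D against A limma called 1 of them lower and 0 higher, against 3.74% and 8.7% of all peaks. Negative changes were found at 14 of the 19 (median log2 -0.18), against 56.9% of all peaks (median -0.04). A peak 3.01 kb from the start of Ifi47 (chromosome 11, 49073369 to 49073794) held 5.22 and 6.14 rppm in A, 5.12, 5.49 and 4.87 in B, 4.91, 5.86 and 4.03 in C and 2.31, 3.49 and 2.93 in D. The peak fell by 0.78 on the log2 scale (SE 0.19, limma adjusted p = 0.0127). The 3 libraries of D were below the other 8. The remaining 7 Ifi47 peaks ranged from -0.38 to 0.38, and no peak of Igtp or Irgm1 was called. With the mouse as a block, limma called lower the start-site peak of Igtp (log2 -0.25 without the block, adjusted p = 0.0422 with it) and a peak 14.9 kb downstream of the Irgm1 start (log2 -0.18, adjusted p = 0.0471). That fit called 8.79% of all peaks lower and 12.5% higher. The Ifi47 call was lost without A replicate 1 (limma adjusted p = 0.0515) or A replicate 3 (0.149).

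**Figure D4:**
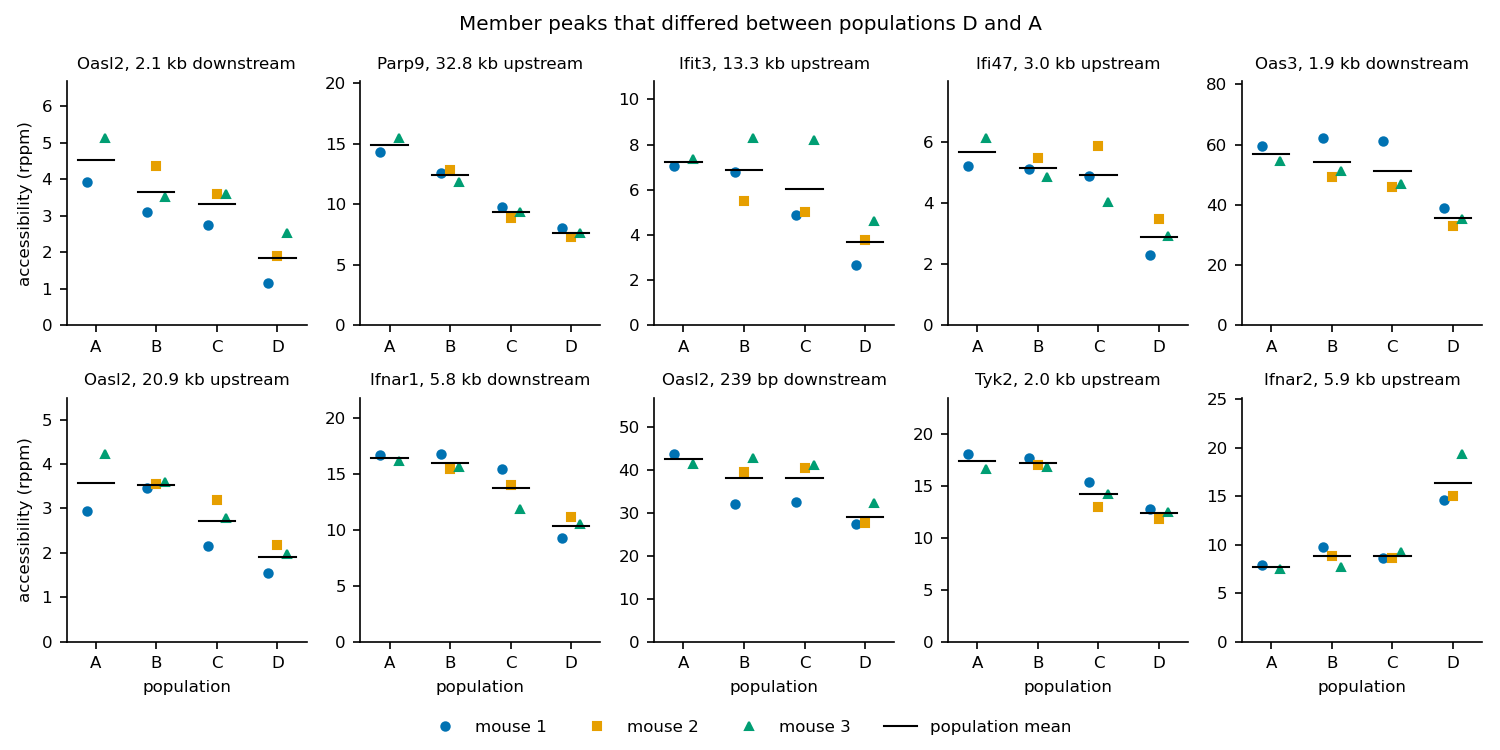
Accessibility in rppm (vertical axes, each from 0) by population at the 10 member peaks called in D against A, ordered by log2 change and titled by gene and distance from the start site. Points are libraries, coloured by mouse, and black lines are population means. In every panel but Ifnar2 the libraries of D lie below those of A, while at Ifnar2 they lie above, at 14.6 to 19.3 rppm.

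No peak of the sensors and antiviral effectors was called in D against A by limma. Over all peaks 3.74% were called lower and 8.7% higher, with a median log2 change of -0.04. The 15 sensor peaks (Ddx58, which encodes RIG-I, Ifih1, which encodes MDA5, Dhx58 and Zbp1) had a median log2 change of -0.05. The 28 effector peaks had a median of -0.10. The largest negative change among the effectors was at the start site of Rsad2, which encodes viperin, at 33.9 and 33.7 rppm in A and 32.0, 22.0 and 24.5 in D (a log2 change of -0.38, limma adjusted p = 0.144). The largest positive one was 9.01 kb upstream of Sp100, in an intron of Sp140 (4.21 ± 1.12 to 6.72 ± 2.54 rppm, log2 0.54, limma adjusted p = 0.199). With the mouse as a block, limma called the Rsad2 peak lower (adjusted p = 0.0441) and the Sp100 peak higher (0.0208). That fit called 8.79% of all peaks lower and 12.5% higher. At the start site of Cmpk2, a mitochondrial nucleotide kinase beside Rsad2, mouse 1 gave the lowest library of every population (41.4, 36.5, 38.9 and 34.3 rppm in A to D). The blocked fit called this peak lower (limma adjusted p = 0.0210) where the fit without the block did not (log2 -0.20, limma adjusted p = 0.482). Samhd1, a phosphohydrolase that depletes nucleotides, had the most peaks of any member, 9, with changes from -0.29 to 0.23, and the blocked fit called one of them, 13.1 kb past its start, lower (log2 -0.27, limma adjusted p = 0.0480). It also called lower the start-site peak of the sensor Dhx58 (log2 -0.29 without the block, limma adjusted p = 0.0454 with it).

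Population D was then set against C, which shares its lack of Ly6C and has less reporter. Here 3 member peaks were lower (2.40%, against 1.49% of all peaks) and 1 was higher (0.80%, against 4.51%). They were the Oas3 intron 1 peak (log2 -0.50, SE 0.13, limma adjusted p = 0.0339), the Ifit2 intron peak, a peak 5.45 kb upstream of Oasl2 (chromosome 5, 114891201 to 114891766) and the Ifnar2 peak. The Oasl2 site held 6.09 and 6.95 rppm in A, 7.02, 8.24 and 9.82 in B, 10.6, 8.12 and 9.28 in C and 4.24, 4.65 and 7.05 in D. From C to D it fell by 0.73 on the log2 scale (SE 0.18, limma adjusted p = 0.0313). Its mean was highest in C and lowest in D. D was below C in all 3 mice at 45 member peaks (36%, against 26.4%) and above at 14 (11.2%, against 19.7%). With the mouse as a block, 10 member peaks were lower and 1 higher (4.53% and 6.82% of all peaks). The Oas3 call was lost without A1, A3, B3, C1, C3, D2 or D3, taken singly (limma adjusted p 0.0517 to 0.13), the Oasl2 call without B2, C1, C3, D1 or D2 (0.0503 to 0.116), and all 4 calls without mouse 2 or without mouse 3. The Oas3 call was also lost by edgeR (adjusted p = 0.052) and by limma with median-of-ratios scaling (0.0613), quantile normalization (0.0501) or a minimum mean of 5 rppm (0.0538), and the Oasl2 call by edgeR (0.0709) and DESeq2 (0.0935).

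The reporter step among Ly6C positive cells, B against A, gave 0 called member peaks of 125 (0% of all peaks were called in either direction), with 0 at an unadjusted limma p below 0.05 (2.28% of all peaks were higher and 0.4% lower) and 0 by edgeR. The median log2 change of the members was 0.00, against 0.01 over all peaks. C against B, which sets Ly6C negative against positive cells at the same reporter range, gave 0 called by limma and 0 by edgeR, with 2 lower and 0 higher at an unadjusted p below 0.05. Over all peaks limma called 0.0022% higher and 0% lower, edgeR 0.141% and 0.0154%, and 2.77% and 1.23% passed the unadjusted p. C was below B in all 3 mice at 29 member peaks (23.2%, against 15.5%) and above at 10 (8%, against 16.5%). Over the 4 populations, the means fell at each step from A to D at 21 member peaks (16.8%, against 13%) and rose at each step at 4 (3.2%, against 13.5%). Any difference among populations was called at 7 peaks by the limma F test (5.60%, against 9.64%) and at 16 with the mouse as a block (12.8%, against 17.5%). The difference between the steps D minus C and B minus A was not called at any member peak by limma (0.609% of all peaks higher and 0.022% lower), edgeR or DESeq2, with 4 at an unadjusted limma p below 0.05 (7.98% of all peaks, 3.20% of members). With the mouse as a block it was called at the Oas3 intron 1 peak and the Oasl2 peak 5.45 kb upstream. Both changes were more negative in D minus C than in B minus A (with the block 0.815% of all peaks were called lower and 1.35% higher). These steps differ in both reporter range and Ly6C, whose parts cannot be told apart.

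Other genes of the pathway, from lists that hold no member, had called peaks in both directions. Of 17 further signalling and induction genes, all with peaks, 9 of 126 peaks rose from A to D and 6 fell, with a median log2 change of -0.13 (13 rose and 21 fell with the mouse as a block). Of 71 further inducible genes 57 had peaks, and 6 of 174 peaks rose and 7 fell, with a median of -0.06 (11 rose and 22 fell with the block). Over all peaks 8.7% rose and 3.74% fell, with a median of -0.04, and with the block 12.5% rose and 8.79% fell. The called peaks with the smallest p included a rise near Socs1, an inhibitor of Jak kinases, 93.6 kb away (0.637 ± 0.330 to 5.85 ± 1.40 rppm), and near Irf8, an interferon regulatory factor (4.43 ± 0.571 to 14.3 ± 0.424 rppm). Peaks near Ube2l6, the ISG15-conjugating enzyme (log2 1.45), Nlrc5, an activator of MHC class I genes (log2 1.15), Irf2 (log2 1.58) and Ptpn11 (log2 0.92) also rose, as did a further peak each of Irf8 (log2 1.22) and Socs1 (log2 0.68). Peaks near Ms4a4b (log2 -0.70) and the receptor kinase Jak1 (12.6 ± 1.13 to 8.19 ± 0.547 rppm, log2 -0.56, limma adjusted p = 0.0120) fell. Whether these peaks act on the genes they were assigned to was not tested.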

How the data were processed

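The deposited table gives 1 value per peak and library for 11 ATAC-seq libraries. Its values are RPM (rppm), reads scaled by the authors to a common total that the sources used here do not define. Bowtie, MACS2 and the mm10 build come from the submitters' processing notes, with no versions or roles. Read filters, peak merging and pooling for peak calling are not given in the sources used here. No listed peak had fewer than 3 libraries at 1 rppm or more. In each library the values were multiples of a single step (100% to within 6e-04 rppm), which gave whole reads and the total. No molecular identifiers are recorded, so reads may include copies of 1 fragment.

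Members were matched by the deposited gene name. The main test was limma 3.58.1 (R 4.3.3) fitted to log2(rppm + 1) of all 11 libraries, with a mean for each population, a variance trend and no mouse term, two-sided, with Benjamini-Hochberg adjustment over 45508 peaks and a threshold of 0.05. Changes on this scale understate ratios at low values. edgeR 4.0.16 and DESeq2 1.42.0 were run on the whole reads as alternatives. All 3 were tested on simulated data, with results not reported here. The simulated libraries were drawn independently, without a mouse effect, so they do not show how the tests behave where libraries share a mouse. The number in a library's name is its mouse. Deviations from population means correlated at 0.183 to 0.556 in 15 pairs from the same mouse and at -0.433 to 0.203 in 30 pairs from different mice. A fit with the mouse as a block is therefore also given. The peaks it added are named for D against A and for the difference between steps. For D against C and the test of any difference they are only counted. Members and gene lists were chosen with earlier results of these data known. Described by rule are every called member peak and, of the 2 other pathway lists, the 10 called peaks with the smallest p. Of the peaks nearest a start site, levels are shown for 37 genes, and changes between populations are given for some genes only. No genome sequence was used, so motifs were searched in RefSeq promoter windows only. MACS2 scores are not used here. Symbols of all 39 members matched the RefSeq table of GRCm38.p6. Some results on single genes and motifs are not reported here.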

Additional observations from a re-analysis of the deposited data

How the results depend on the processing

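Of 333 refits of 14 peak and contrast results, 242 kept the call, 91 lost it and 0 changed direction, although leaving out a library of another population, or fitting only the pair compared, cannot change the size of a difference. The 10 member peaks called in D against A by limma became 20 with the replicate block (the mouse as a block), 19 by edgeR with the block (chosen after seeing the data), 5 with only the 2 populations compared, 6 without mouse 2 and 0 without mouse 3, and 3 to 11 without 1 library. The 4 called in D against C became 11 with the replicate block, 12 by edgeR with the block, 2 with a minimum mean of 5 rppm, 2 with median-of-ratios scaling, 2 by edgeR, 1 with only the 2 populations compared, 0 without mouse 2 or mouse 3, and 1 to 3 without 1 library. The difference between steps went from 0 to 2 peaks with the replicate block and 4 by edgeR with the block, and the test of any difference from 7 to 16 with the replicate block. Without mouse 1, mouse 3 or either library of A, population A is a single library assumed to vary like the others. The looser motif, with GAA as its last bases, was in the promoters of 46.7% of 30 member genes (9.76% of all genes), against 43.3% for the ISRE (3.99%). The planned motif searches over whole peaks and around peak centres were not run, since no genome was used. Depth limits the weakest peaks most: in population D replicate 1 a value of 1.16 rppm is 3 reads. The cause of the changes in calls was not tested.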
